A study of Solanum lycopersicum with 21 samples.

Results

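The regions described here are the 4940 peaks called for the complex of FUL2 and J2 over its input, out of 52995 peaks in the 6 peak lists of the series. All entries of the FUL2-J2 list were taken, with no further selection on their values. The tested group was FUL2-J2, 3 libraries of DNA bound by the 2 proteins made together, and its control was the input, 3 libraries from a protein synthesis reaction to which no plasmid had been added. The other groups, with 3 libraries each, were MC-J2, FUL2-J, FUL2-TM3, MC-J and MC-TM3, each a FUL2 or MC protein with a partner, and all groups together make 21 samples. All groups used genomic DNA of young leaves from wild-type plants of the tomato (Solanum lycopersicum) cultivar Moneyberg.

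FUL2 and J2 are MADS-domain transcription factors, a family that controls when a plant meristem turns into a flower and which organs that flower makes. MADS-domain proteins bind as dimers to short AT-rich DNA elements named CArG-boxes, and pairs of dimers can join into a tetramer that holds 2 such elements at once by looping the DNA in between. FUL2 and MC (MACROCALYX) belong to the AP1/FUL clade, to which Arabidopsis APETALA1 and FRUITFULL also belong. J2 is a SEPALLATA-like protein that acts in the tomato inflorescence and in the formation of the pedicel abscission zone, while J (JOINTLESS) and TM3 belong to other clades of the family. DNA affinity purification sequencing (DAP-seq) measures binding outside the cell. Here the proteins came from a wheat germ extract, FUL2 carried a 3×FLAG tag, and the DNA held on beads against that tag was amplified and sequenced. The DNA library had not been amplified before the binding, so that the methylation of the leaf DNA was not erased. Nucleosomes and the other proteins of the nucleus were absent, and the peaks are places where these proteins could hold naked DNA, not places where they were found in a plant.

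The authors merged the alignments of a complex before calling its peaks, so that each complex has 1 list and no value per library. The values below therefore have no replicate error, and no difference between complexes was tested against one. Intervals on shares (95% Wilson) and on medians (95% binomial) count the peaks as if each were drawn independently and leave out how libraries vary. Each peak carries a start, an end and a summit, the base where most fragments pile up. It also carries the fold enrichment at that summit over the local background and a −log10 q, where q is the p-value of the pileup corrected for the many positions tested. Coordinates are those of the Moneyberg genome, counted from 1. The sequence of that genome was not used here, so no CArG-box was read from the peaks.

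The FUL2-J2 peaks were narrow, moderately enriched and spread over the whole genome. They covered 1.60 Mb in all, and 4933 of them lay on the 12 chromosomes, at 5.99 peaks per Mb of a span of 824 Mb, while 7 lay on unplaced sequence. The number per Mb ranged from 5.29 on chromosome 6 to 6.42 on chromosome 2. The other lists held 4677 peaks (MC-J2), 10449 peaks (FUL2-J), 10654 peaks (FUL2-TM3), 10818 peaks (MC-J) and 11457 peaks (MC-TM3). All 6 lists were called against the input libraries, so values of different lists are given side by side and an agreement between them is not taken as a result.

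The median fold enrichment at a FUL2-J2 summit was 4.25 (4.21–4.26), with quartiles of 3.76 and 4.82 and a range from 1.77 to 9.99. A fold of at least 3 was reached by 4720 peaks (95.5%, 94.9–96.1%), a fold of at least 5 by 998 peaks (20.2%, 19.1–21.3%) and a fold of at least 7 by 56 peaks (1.13%, 0.874–1.47%). Most sites thus sat within a small range of folds, with a thin tail of strong ones. On single chromosomes the median fold lay between 4.14 (chromosome 7) and 4.37 (chromosome 5). The median −log10 q was 15.3 (15.0–15.6), with quartiles of 11.9 and 19.8 and a range from 4.11 to 74.4. A −log10 q of at least 10 was found for 4355 peaks (88.2%, 87.2–89.0%), of at least 20 for 1216 peaks (24.6%, 23.4–25.8%), of at least 30 for 322 peaks (6.52%, 5.86–7.24%) and of at least 50 for 16 peaks. The FUL2-J2 peaks had a median fold of 4.25 and a highest fold of 9.99, beside 4.37 and 11.3 in the MC-J2 list and 4.18 and 12.1 in the FUL2-J list.

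The fold and the p-value together gave the number of reads at 4843 of the 4940 summits (98.0%), because MACS2, the peak caller, computes both from the same pileup and background. A median of 120 treatment reads covered a FUL2-J2 summit, with quartiles of 106 and 140 and a range from 71 to 421. The treatment was 2.18 times as deep as the input. It had been scaled down to the input, so that 1 treatment read counted as 0.460 input reads. At 2053 summits (42.4%) the background was the one common to the list, equal to 10.6 input reads. At 1955 others (40.4%) it was a whole number of input reads, and at 835 it was neither. Several solutions were possible at 499 peaks, where the common background was preferred and then a whole one. These shares can thus depend in part on that preference. Only 126 summits (2.60%) had more than 2 times the common background, and the highest background was 82.0.

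Where the background was high, the peaks had more reads and lower folds. The 126 peaks with more than 2 times the common background had a median of 176.5 reads, a median fold of 2.98 and a median −log10 q of 14.3. The 2053 peaks at the common background had a median of 110 reads, a median fold of 4.45 and a median −log10 q of 15.0. The difference between these groups was thus wide in fold and narrow in −log10 q. The fold is a ratio over the background, and a peak over a high background needs more reads to pass the calling threshold. The part of the calling in these differences was not tested. Across all 4940 peaks the rank correlation of fold and −log10 q was 0.892, and at the common background, where a whole number of reads fixes both values, the 2053 peaks shared 64 values of −log10 q. In the whole list 1311 distinct values occurred, and 154 peaks had the same −log10 q of 15.6.

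**Figure D1:**
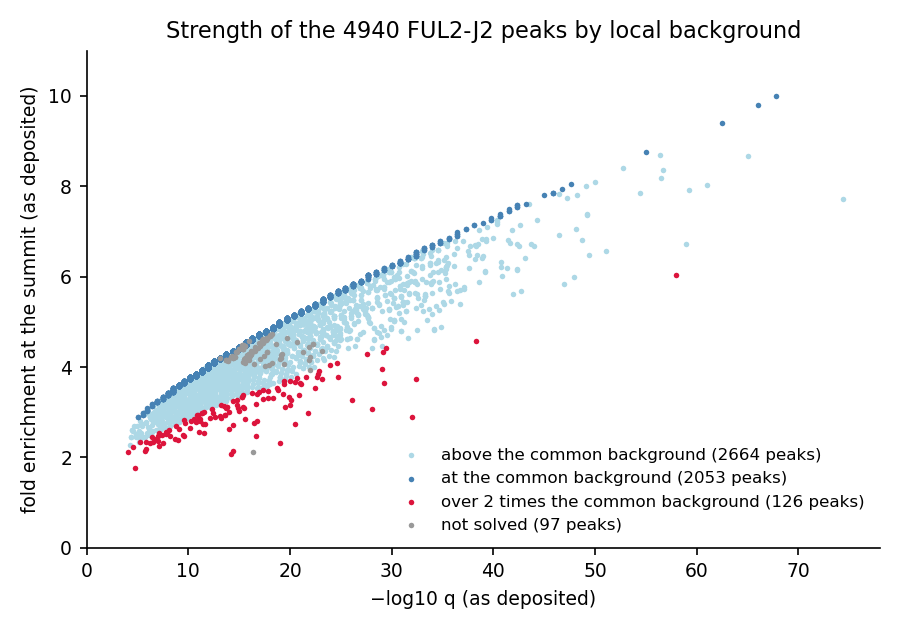
Each point is one of the 4940 FUL2-J2 peaks, with the −log10 q on the horizontal axis and the fold enrichment at the summit on the vertical axis, both as deposited, coloured by the background that was recovered for its summit. The 2053 peaks at the common background form the upper edge of the cloud, and the 126 peaks with more than 2 times that background lie along its lower edge.

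The strongest FUL2-J2 site by −log10 q was found on chromosome 1 from 69878602 to 69879050. At its summit 334 reads stood over a background of 19.0, which gave a fold of 7.72 and a −log10 q of 74.4. The peak of the FUL2-J list at this place was annotated by the authors as promoter at 1 to 2 kb, with Solyc01g065500 as its nearest gene. This locus also had the highest −log10 q in the MC-J2 list (83.5, fold 8.23), in the FUL2-J list (113, fold 9.56) and in the MC-J list (81.0, fold 7.90). It was the second of the FUL2-TM3 list (66.9, fold 7.16) and the eighth of the MC-TM3 list (90.4, fold 8.32). The summits of these 5 lists were within 19 bp of the FUL2-J2 summit.

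The FUL2-J2 peak with the highest fold of the list, 9.99, stood on chromosome 12 from 33836689 to 33837114. It ranked second by −log10 q (67.8) and had 250 reads over the common background. In the other lists its fold was 10.01 (MC-J2), 10.5 (FUL2-J), 5.20 (FUL2-TM3), 7.85 (MC-J) and 11.5 (MC-TM3). The third site by −log10 q, on chromosome 8 from 15955818 to 15956242, had 245 reads, a fold of 9.80 and a −log10 q of 66.0. Its fold was 11.3 (MC-J2), 10.6 (FUL2-J), 9.08 (FUL2-TM3), 8.19 (MC-J) and 11.1 (MC-TM3) beside it. At both sites the summits of FUL2-J2 and MC-J2 were within 16 bp of each other.

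The fourth site, on chromosome 5 from 48706122 to 48706566, had a fold of 8.67 and a −log10 q of 65.0, with 262 reads over a background of 13.0. Its fold was 8.76 in the MC-J2 list and between 5.27 (MC-J) and 7.50 (FUL2-J) in the other 4 lists. The fifth site, on chromosome 1 from 70740442 to 70740791, had a fold of 9.40, a −log10 q of 62.5 and 235 reads over the common background. At this site the FUL2-J2 fold stood above those of the other 5 lists, which were 8.29 (MC-J2), 8.28 (FUL2-J), 7.14 (FUL2-TM3), 5.80 (MC-J) and 7.57 (MC-TM3). The authors annotated the FUL2-J peak at the fifth site as distal intergenic, with Solyc01g065910 as the nearest gene.

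Of the other 5 among the 10 strongest sites, the one on chromosome 3 from 53214978 to 53215601 was 624 bp wide, the widest of the 10, at a fold of 8.03 and a −log10 q of 61.0. The one on chromosome 8 from 15360152 to 15360718 had a fold of 7.91 and a −log10 q of 59.3, and lay in the same Mb of the chromosome as the third site. The one on chromosome 5 from 40686760 to 40687195 reached a −log10 q of 59.0 at the lower fold of 6.72, with 290 reads over a background of 19.0, where the other two had a background of 14.0. The site on chromosome 2 from 24499072 to 24499538 had a −log10 q of 57.9 at a fold of 6.04, since its 315 reads stood over a background of 23.1, and it ranked 245 by fold. The authors annotated the FUL2-J peak there as distal intergenic, nearest to Solyc02g024060. The tenth site, on chromosome 3 from 25147491 to 25147863, had a fold of 8.35, a −log10 q of 56.7 and 234 reads.

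The 10 strongest sites by −log10 q lay on 6 chromosomes, none of them in the first or last 20% of a chromosome, and 5 of them had another FUL2-J2 summit within 10 kb. In the whole list, 31.4% of the peaks on chromosomes lay in those outer parts and 17.9% of all peaks had another summit within 10 kb. Among the 100 strongest peaks the latter share was 20.0% (13.3–28.9%), close to that of the list. The 10 sites were 350 to 624 bp wide and had 234 to 334 reads. Ranked by fold instead, 5 of them remained among the first 10. The other 5 by fold were on chromosome 5 from 49799447 to 49799821 (fold 8.77), on chromosome 2 from 21994291 to 21994762 (8.70), on chromosome 5 from 57414371 to 57414814 (8.40), on chromosome 4 from 24647700 to 24648069 (8.18) and on chromosome 4 from 54244651 to 54245034 (8.09). Their backgrounds were close to the common one, between 10.6 and 12.3. The one on chromosome 2 was the only one of these 5 with a readable annotation, in which the FUL2-J peak lay in a 3' UTR, nearest to Solyc02g021270. The one on chromosome 5 from 49799447 had a fold of 7.63 in the MC-J2 list, against 12.1 in the FUL2-J list, where it was the highest.

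On the chromosomes not yet named, the strongest site by −log10 q was on chromosome 9 from 56252123 to 56252569 (−log10 q 51.1, fold 6.57), on chromosome 11 from 28730428 to 28730839 (49.2, 7.39), on chromosome 7 from 34142615 to 34143183 (46.8, 7.93), on chromosome 6 from 17096740 to 17097181 (46.5, 7.84) and on chromosome 10 from 54406900 to 54407328 (45, 7.81). On chromosome 4 it was the site from 24647700 to 24648069 (56.5, 8.18). The strongest site of every chromosome thus reached a fold of at least 6. At the other end of the list, the weakest peak by −log10 q (4.11) was on chromosome 1 from 70763980 to 70764236, with a fold of 2.13 over a background of 23.0. The lowest fold, 1.77, was found on chromosome 3 from 29461226 to 29461588, where 214 reads stood over a background of 55. At that place there was no MC-J2 peak, while the folds were 2.77 (FUL2-J), 3.66 (FUL2-TM3), 2.40 (MC-J) and 3.82 (MC-TM3).

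The median width of a FUL2-J2 peak was 309 bp (307–311), with quartiles of 279 and 350 bp. The narrowest peaks measured 257 bp, and 147 peaks (2.98%) had exactly that width while 661 (13.4%, 12.5–14.4%) were within 10 bp of it. Only 470 peaks (9.51%, 8.73–10.4%) were wider than 400 bp and 92 (1.86%) wider than 500 bp. The median width was 309 bp in the MC-J2 list, 332 bp in the FUL2-J list and between 330 and 366 bp in the other 3. The narrowest peak also differed by list, with 252 bp (MC-J2), 269 bp (FUL2-J), 262 bp (FUL2-TM3), 273 bp (MC-J) and 268 bp (MC-TM3). Whether the calling set these lower limits, and their part in the medians, was not tested.

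Stronger FUL2-J2 peaks were wider, with a rank correlation of width and −log10 q of 0.548 across the 4940 peaks and of 0.466 to 0.627 on single chromosomes. Both values come from the same reads. The trend broke off in the widest peaks, a division by width that was chosen after the values were seen. Peaks of up to 300 bp (2112 peaks) had a median fold of 3.97, those over 300 and up to 400 bp (2358) of 4.55, those over 400 and up to 500 bp (378) of 5.24, and those over 500 bp (92) of 4.40. Their median −log10 q was 13.1, 17.9, 25.4 and 17.5 in the same order.

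The summit lay near the middle of most peaks. Of the 4940 summits, 4855 (98.3%, 97.9–98.6%) were in the middle 50% of the peak and 2270 (46.0%, 44.6–47.3%) in its middle 10%, and the median distance from the middle was 17.5 bp (17–18). Before the middle, towards lower coordinates, lay 2553 summits (51.7%, 50.3–53.1%). In the 92 peaks over 500 bp, 75 summits (81.5%, 72.4–88.1%) were in the middle 50%, against 2078 of 2112 (98.4%, 97.8–98.8%) in those of up to 300 bp. The widest peaks were thus also those whose summit was most often off centre. In the widest of all, 960 bp on chromosome 7 from 47838682 to 47839641, the summit was 241 bp from the start, with a fold of 3.35 over a background of 28.0. The next were 890 bp on chromosome 8 from 36344716 to 36345605 (fold 5.88, summit 180 bp from the start) and 814 bp on chromosome 1 from 48299825 to 48300638 (fold 4.82, summit 249 bp from the start). At the locus on chromosome 8, the FUL2-J summit was 450 bp and the MC-TM3 summit 513 bp further on than the FUL2-J2 summit.

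**Figure D2:**
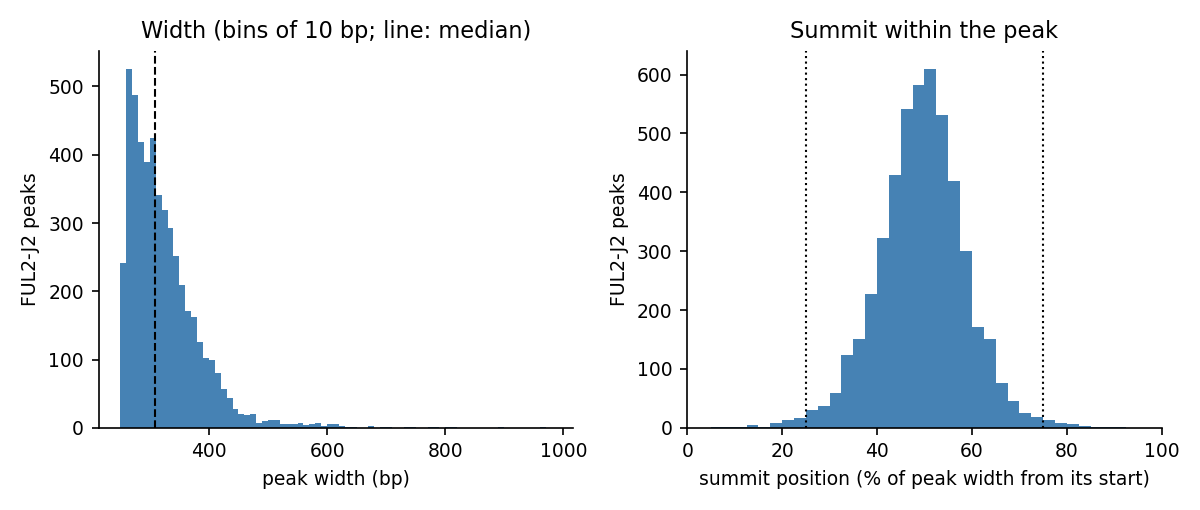
The left panel counts the 4940 FUL2-J2 peaks by width in bins of 10 bp, with the median of 309 bp as a dashed line. The right panel counts them by the place of the summit, in percent of the peak width from its start, with dotted lines around the middle 50%, which holds 98.3% of the summits.

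When the list was divided by −log10 q into 4 groups of 1235 peaks, from the weakest to the strongest, the median fold was 3.49, 4.11, 4.56 and 5.36, the median width 283, 289, 312 and 361 bp and the median number of reads 98, 109, 123 and 153. In the strongest group 99.8% (99.4–99.96%) of the summits were in the middle 50% of the peak, against 94.3% (92.9–95.5%) in the weakest. The fold, the reads and the −log10 q come from the same pileup and background. The rise of fold and reads over the groups is thus largely set by the division itself. Peaks were also wider in the stronger groups, and the width rests on the same reads. The 100 strongest peaks had a median width of 415.5 bp, a median fold of 7.12 and a median of 202 reads.

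Along the chromosomes, FUL2-J2 sites were sparser towards the ends than in the interior. In tomato, genes are densest in the distal parts of the chromosome arms, whereas the long pericentromeric interior is rich in repeats and poor in genes. The outer parts, the first and the last 20% of each chromosome, held 1549 of 4933 peaks (31.4%, 30.1–32.7%) on 40% of the length, and the interior 3384 peaks on 60%. This made 4.70 peaks per Mb in the outer parts and 6.84 peaks per Mb in the interior, a ratio of 0.687. The outer parts had the lower density on 12 of 12 chromosomes, with a share of the peaks between 26.4% (chromosome 12) and 38.7% (chromosome 2). On chromosome 2 the ends differed, with 24.2% of its peaks in the first 20% of its length and 14.5% in the last.

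The density was lowest near the ends and highest near the centre. In 5 bands, each with 10% of the length at either side, it was 4.32, 5.08, 6.08, 6.90 and 7.55 peaks per Mb, for 712, 837, 1002, 1137 and 1245 peaks. In finer bins the rise was not steady, with 4.78 peaks per Mb in the first 5% of the length and 3.71 in the next 5%. By distance from the nearest end, the density was 4.72 per Mb at 1 to 5 Mb (453 peaks), 4.38 at 5 to 10 Mb (525) and 5.67 at 10 to 20 Mb (1360). The peaks over 20 Mb away (2499) had a density of 7.26 per Mb and made up 50.7% (49.3–52.1%) of all on 41.8% of the length. Within 1 Mb of an end there were 96 peaks (1.95%, 1.60–2.37%), at 4.0 per Mb. The share in the outer parts was 31.2% (29.9–32.6%) in the MC-J2 list, 28.5% (27.7–29.4%) in the FUL2-J list, 28.7% (MC-J), 37.6% (MC-TM3) and 62.4% (FUL2-TM3) in the others.

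**Figure D3:**
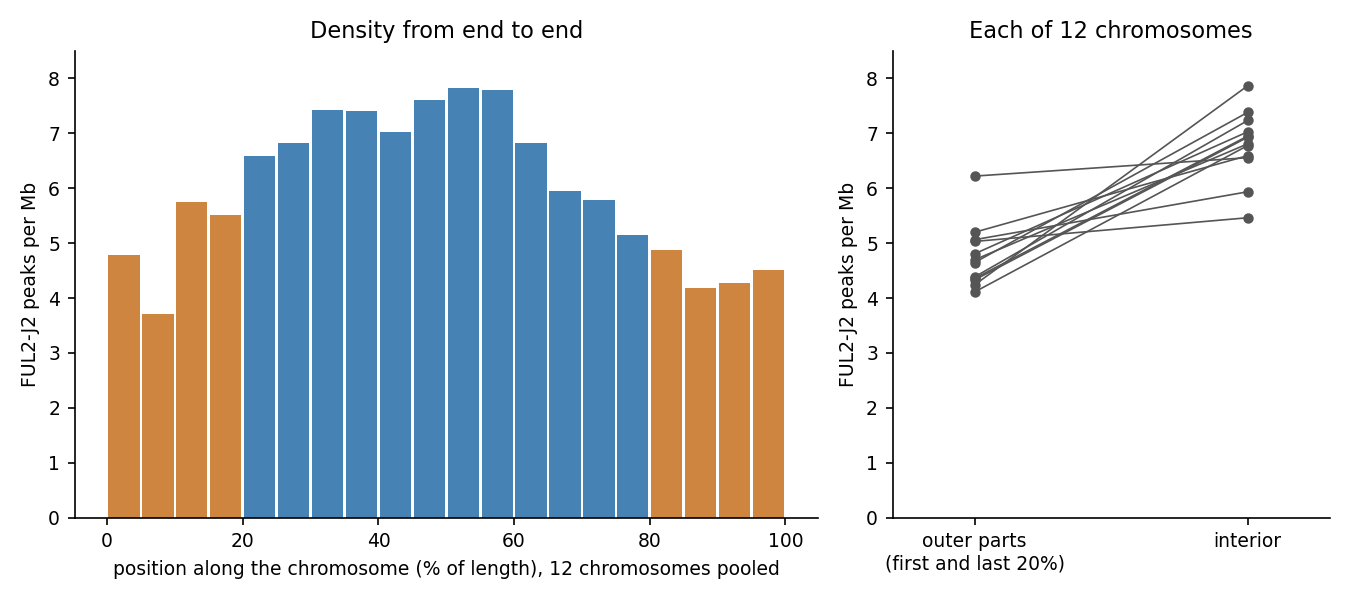
The left panel gives the number of FUL2-J2 peaks per Mb in bins of 5% of the chromosome length from one end to the other, with the 12 chromosomes pooled and the outer parts in brown. The right panel joins the density in the outer parts to that in the interior for each of the 12 chromosomes, and the outer parts are lower on all 12.

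The fold showed no such gradient. The median fold was 4.25 (4.21–4.29) in the outer parts and 4.25 (4.21–4.27) in the interior, and in the 5 bands it lay between 4.21 and 4.26. On single chromosomes the difference, outer parts minus interior, ran from −0.15 (chromosome 3) to 0.31 (chromosome 10), and it was positive on 7, negative on 4 and 0 on 1. The median −log10 q was 15.0 (14.8–15.4) in the outer parts and 15.6 (15.2–15.6) in the interior. The background was the common one at 47.6% of the solved summits in the outer parts and at 40.0% in the interior, and the part of this in the difference of −log10 q was not tested. The 96 peaks within 1 Mb of an end had a median fold of 3.97 and a median −log10 q of 12.9. Among the 100 strongest peaks, 23 (23.0%, 15.8–32.2%) were in the outer parts, and in the 4 groups by −log10 q, weakest first, the share was 31.2%, 34.7%, 30.7% and 29.0%.

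Neighbouring FUL2-J2 summits were a median of 98.5 kb apart (93.7–103 kb, 4921 pairs), with quartiles of 36.0 and 217 kb and a mean of 166 kb. The shortest distance was 453 bp and the longest 3.96 Mb. At most 1 kb lay between 30 pairs (0.610%, 0.427–0.869%) and at most 10 kb between 473 pairs (9.61%, 8.82–10.5%), where 10 kb is 6.03% of the mean distance. Over 1 Mb lay between 49 pairs. In 819 windows of 1 Mb, the median was 6 peaks with quartiles of 4 and 8, and 21 windows were empty while 55 held 12 or more. The variance over the windows was 1.87 times their mean, where peaks placed independently at a constant rate would give a ratio of 1. The parts of the lower density near the ends and of groups of close peaks in this were not tested.

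**Figure D4:**
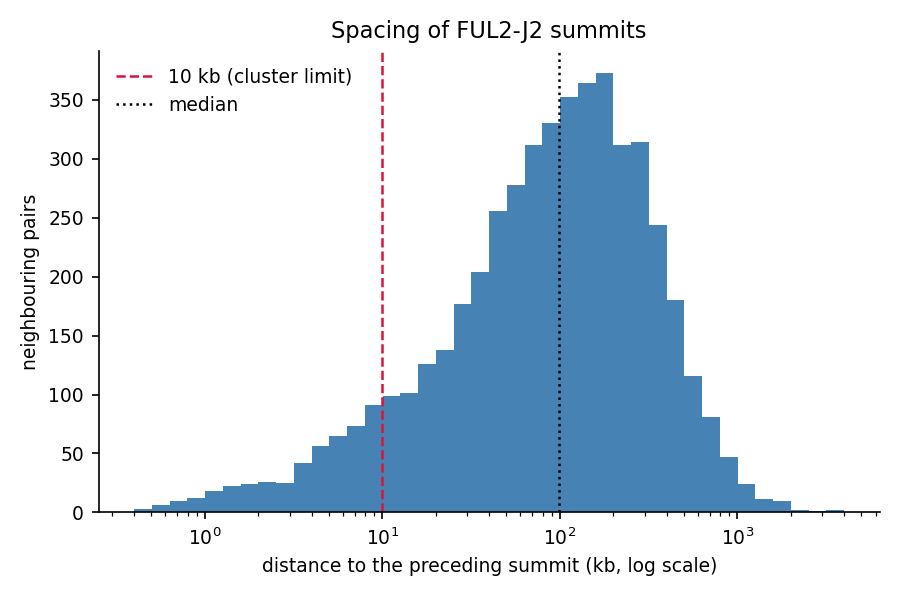
The histogram counts the 4921 pairs of neighbouring FUL2-J2 summits by the distance between them in kb, on a log scale. The dotted line is the median of 98.5 kb and the dashed line the limit of 10 kb used for clusters, below which 473 pairs lie.

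The most FUL2-J2 peaks in a window of 1 Mb, 19, were found on chromosome 2 between 21 and 22 Mb and on chromosome 8 between 67 and 68 Mb, followed by 17 on chromosome 8 between 15 and 16 Mb, which holds the third and the seventh site by −log10 q. The closest pair of summits was on chromosome 10, near its start, with peaks from 67732 to 68065 and from 68334 to 68591 (453 bp apart, folds 3.42 and 3.67). The next were on chromosome 9, from 20697862 to 20698337 and from 20698487 to 20698812 (454 bp, folds 4.88 and 4.80), and on chromosome 12, from 29905339 to 29905606 and from 29905863 to 29906230 (499 bp, folds 3.61 and 4.37). Between the peaks of these pairs 149 to 268 bases were in no peak.

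The longest stretch of a chromosome without a FUL2-J2 summit ran from 17594158 to 21549208 on chromosome 11, 3.96 Mb. The same stretch held 1 MC-J2 peak, 23 FUL2-J peaks, 3 FUL2-TM3 peaks, 13 MC-J peaks and 5 MC-TM3 peaks. The second, 2.53 Mb on chromosome 1 from 37927525 to 40459880, held 2 MC-J2 peaks, 48 FUL2-J peaks, 6 FUL2-TM3 peaks, 40 MC-J peaks and 5 MC-TM3 peaks. The third, 2.12 Mb on chromosome 9 from 77936805 to 80054673, held 1 MC-J2 peak, 10 FUL2-J peaks, 52 FUL2-TM3 peaks, 11 MC-J peaks and 27 MC-TM3 peaks. Every other list thus had some peaks in these 3 stretches. The lists differ in size, and the counts were not set against the number of peaks per Mb of each list. Few peaks were not particular to the MC-J2 list. The FUL2-TM3 and MC-TM3 lists held 3 and 5 on chromosome 11 and 6 and 5 on chromosome 1, though 52 and 27 on chromosome 9.

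Summits no more than 10 kb from the next were joined into clusters. There were 410 clusters of 2 or more peaks, with 883 peaks in all (17.9%, 16.8–19.0%), of which 361 were pairs, 43 held 3 peaks, 4 held 4, and 1 each held 5 and 11. The share of peaks in clusters ranged from 12.3% on chromosome 4 to 23.9% on chromosome 9, and was 14.6% in the outer parts against 19.4% in the interior. It was 16.5% (15.5–17.6%) in the MC-J2 list and 30.8% (29.9–31.7%) in the FUL2-J list, which holds 10449 peaks on the same genome.

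Peaks in clusters were about as strong as those alone. The median fold was 4.27 (4.21–4.34) for peaks in clusters and 4.25 (4.21–4.26) for peaks alone, and the share in clusters in the 4 groups by −log10 q, weakest first, was 16.6%, 17.9%, 18.9% and 18.1%. The strength of a peak was also little related to that of its neighbour. The rank correlation of their folds was 0.135 over the 30 pairs within 1 kb, 0.165 over 63 pairs at 1 to 2 kb, −0.01 over 147 pairs at 2 to 5 kb and 0.150 over 233 pairs at 5 to 10 kb. It was −0.01 over the 1088 pairs at 10 to 50 kb.

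The cluster with the most peaks, 11, was found on chromosome 8 from 67320207 to 67352739, 1.53 Mb before the end of the chromosome. Its first peak, from 67320207 to 67320480 (fold 4.64, 115 reads), stood 9.85 kb before the other 10. These 10, from 67330104 to 67352739, lay at almost equal steps, a regularity that was noticed after the positions were seen. From summit to summit, the distances were 2998, 1483, 1453, 3020, 2961, 2995, 1524, 4459 and 1537 bp, which are 2, 1, 1, 2, 2, 2, 1, 3 and 1 steps of 1495 bp. No distance deviated from its whole number of steps by more than 42.3 bp, or 2.83% of a step. Over the span of 22.4 kb, 10 of 16 such positions had a FUL2-J2 peak.

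The 10 peaks of the row were of ordinary or low strength. Their folds were 4.21, 3.96, 3.99, 2.48, 3.85, 3.35, 3.68, 3.07, 4.37 and 3.34 in order along the chromosome, 9 of the 10 below the median of the list. They had 110 to 149 reads over backgrounds between 10.8 and 27.0, and widths from 263 to 324 bp. The lowest fold of the row, 2.48 on the peak from 67336082 to 67336364, stood where the background was highest, 27.0, and the reads most, 149. Under the same stretch, the MC-J2 list held 12 peaks with a step of 1496 bp and a median fold of 3.71, and the MC-J list 13 peaks with a step of 1495 bp and a median fold of 3.30. The FUL2-J list held a row of 17 peaks, the last of them 1 step beyond the FUL2-J2 row, with a median fold of 4.46 and no position missing, since each of the 16 distances was 1 step, here 1490 bp. The FUL2-TM3 list held 1 peak and the MC-TM3 list 3. The sequence under the row was not used here.

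**Figure D5:**
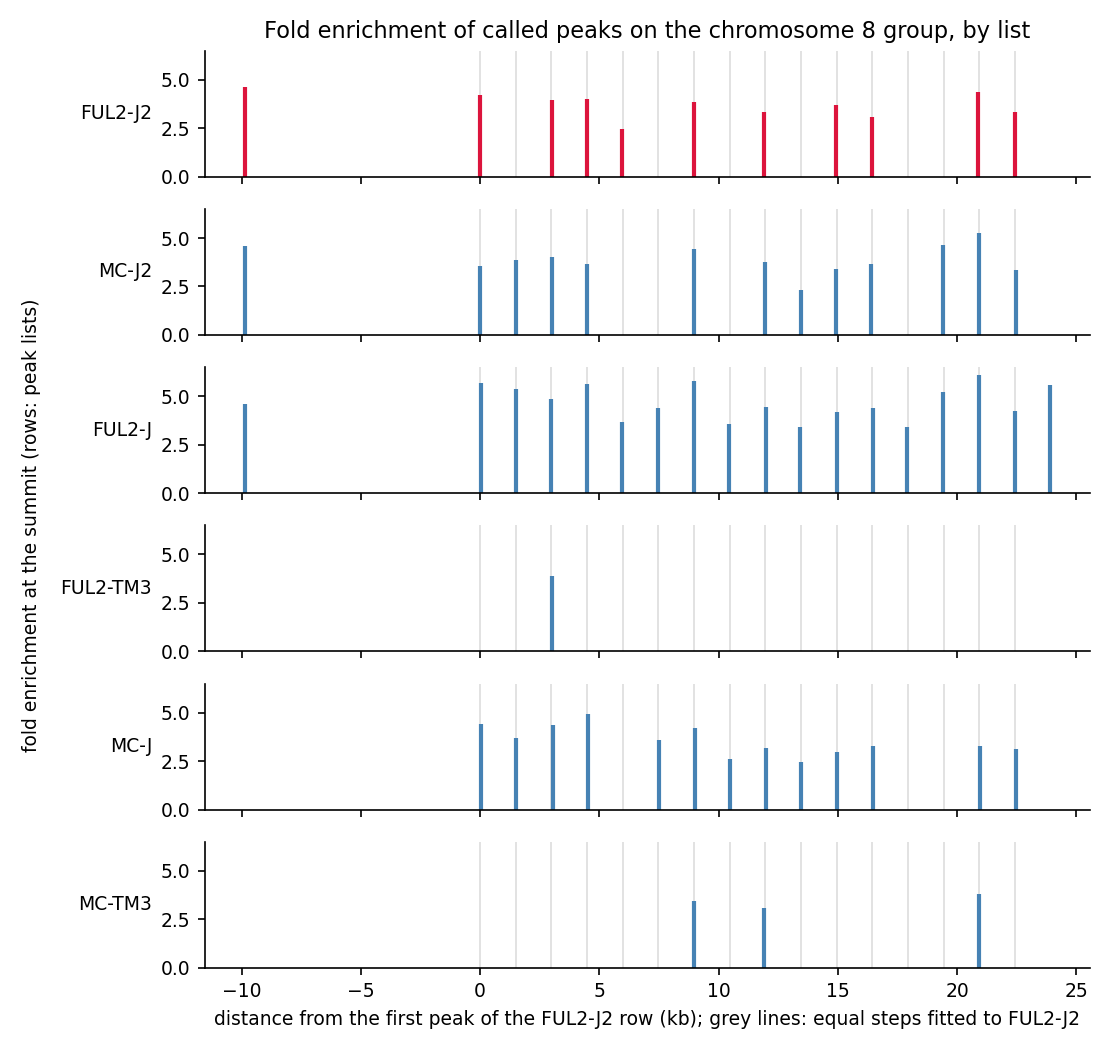
Each bar is a called peak on chromosome 8, placed by the distance of its summit in kb from the first of the 10 evenly spaced FUL2-J2 peaks, with its fold enrichment as height, and each panel is one of the 6 lists with FUL2-J2 on top. The grey lines mark the 16 positions at equal steps fitted to FUL2-J2, of which 10 have a FUL2-J2 peak and 12 an MC-J2 peak, while the FUL2-J panel has 17 peaks in the row, the last of them beyond the grey lines.

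The cluster of 5 peaks was on chromosome 9 from 23993801 to 24005382. Its folds were 6.39, 5.71, 4.57, 4.26 and 4.84 in order along the chromosome, at distances of 1189, 2313, 6359 and 1363 bp, so that it had neither the even steps nor the low folds of the row on chromosome 8. Of the clusters of 4, the one with the strongest single peak by −log10 q (38.6) was on chromosome 10 from 29174139 to 29185950, with folds from 3.60 to 5.87 and summits 3494 to 4247 bp apart. The others were on chromosome 2 from 21866773 to 21878460 (folds 4.72 to 6.31, in the window of 1 Mb with 19 peaks), on chromosome 7 from 67344508 to 67363480 (folds 3.69 to 5.31) and on chromosome 9 from 53850332 to 53860019 (folds 3.57 to 4.84).

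The 7 peaks on unplaced sequence were of 2 kinds. At 3 of them, placed from 3880419 to 3880688, from 3910233 to 3910529 and from 3940090 to 3940370 of the unplaced sequence, the background was 76.0, 82.0 and 76.1, and 356, 374 and 386 reads gave folds of only 2.14, 2.08 and 2.32. The last of these had the highest −log10 q of the unplaced peaks, 19.0. One more, from 4818178 to 4818495 with a fold of 2.12, could not be solved for reads. The other 3 had 84 to 103 reads over backgrounds between 10.6 and 14.0 and folds between 3.22 and 3.77. Peaks on the chromosomes had folds down to 1.77, so the folds of all 7 unplaced peaks were within their range. On the chromosomes, 123 peaks had a background of more than 2 times the common one.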

How the data were processed

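DAP-seq libraries of FUL2-J2 and of the input (3 each) were made from Moneyberg leaf DNA. Per the methods, the authors used Trim Galore for trimming and HISAT2 for mapping paired-end reads on the Moneyberg assembly. They merged alignments and ran MACS2 with a threshold of 0.0001, which the paper states as a P value. The lowest −log10 p in the deposited list was 6.48 and the lowest −log10 q 4.11. The list thus reached down close to this threshold in q, not in p. Tool versions are not given in the sources used here. The peak names refer to a merge of 2 alignments, so how many of the 3 libraries entered it is not settled. The deposited list gives per peak a fold, which is a ratio over the local background with a pseudocount of 1, a −log10 p, a −log10 q and the offset of the summit. The deposited score was not used.

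All peaks were kept, with starts turned into 1-based positions. The length of a chromosome ran to the end of its last peak in any of the 6 lists. Outer parts are the first and last 20% of it, and clusters join summits at most 10 kb apart. Reads were recovered by solving the caller's formulas for fold and Poisson p, with backgrounds of at least 4 considered and pileups called whole within 0.1 reads. The worth of a read was estimated on peaks at the common background. Of 1030 peaks at that background held out of this estimate, 100% were whole, and peaks at other backgrounds were not checked in this way. Where several solutions were whole (499 peaks), the common background was preferred, then a whole one. The recovery, clusters and placement were tested on simulated data. The simulated backgrounds were a common one or low whole numbers, and the worth of a read differed from that found here. High backgrounds, and those neither common nor whole, were thus not covered. Library totals were not used, so the depth is known at summits alone. PCR copies were not told apart, so intervals cover counting error only. Peaks of 1 merged list are not replicates, and no p-value was computed.

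Named sites are the 10 highest by −log10 q and by fold, the strongest of each chromosome and of the unplaced sequence, the 3 widest, the 3 clusters with most peaks, the 3 closest pairs, the 3 longest empty stretches, the weakest and the lowest fold. The further clusters of 4 and unplaced peaks, the evenly spaced row, the dense windows and the width classes were singled out after their values were seen. The list, the measures and the rules were chosen with earlier results of these data known. Alternatives were a minimum −log10 q or fold, no unplaced sequence, and other limits for clusters, ends and read solutions. Genes near sites are the authors' annotation of FUL2-J peaks where it was readable. Python 3.11.15, numpy 2.4.6, pandas 2.3.3, scipy 1.17.1 and matplotlib 3.10.9 were used.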

Additional observations from a re-analysis of the deposited data

How the results depend on the processing

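Of 35 alternative settings for the results on FUL2-J2 peaks, 13 moved a value beyond its interval over peaks or changed part of the 10 strongest sites, and these values are given here. The number of peaks has no interval, so its settings are among the 35 but could not count among the 13. It was 4355 with a minimum −log10 q of 10, 4720 with a minimum fold of 3 and 4933 without the unplaced sequence. With a minimum −log10 q of 10, the median width was 313 bp, the median fold 4.37, the share of summits in the middle 50% of the peak 99.4%, the median distance 111 kb, the share of peaks in clusters 16.5% and the rank correlation of width and −log10 q 0.591. The share in clusters was 9.27% with a limit of 5 kb and 29.0% with a limit of 20 kb. Counted within 5 Mb of an end, the outer share was 11.1%. That part is shorter than the outer parts above, with 2.91% of the length within 1 Mb and 11.6% at 1 to 5 Mb. Its density was 4.0 and 4.72 peaks per Mb there, against 5.99 over the 12 chromosomes. With −log10 q in place of the fold, the difference of outer parts minus interior was −0.636, and with the fold in place of −log10 q the rank correlation with width was 0.447 and 5 of the 10 strongest sites remained. At the common background the median was 110 reads. These alternatives select other peaks or another measure. A result with its sign turned was not among them.

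No paired analysis was possible because the authors merged the replicates into 1 list per complex, and leaving out 1 library at a time was not run for the same reason. Whether a site is bound in each of the 3 libraries is thus unknown, and so is the error of every fold. Among the called peaks that were solved, the fewest reads at a summit were 71, and sites below the calling threshold were not seen.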
